A study of Caenorhabditis elegans with 2 samples.

Results

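The exonic regions of an NHR-12 chromatin immunoprecipitation and sequencing (ChIP-seq) experiment in Caenorhabditis elegans were 389 of the 3817 regions in the authors' joint list, for which reads of the replicates were combined. A region was taken as exonic when its midpoint, the point source given by the authors' peak caller, lay in a coding or untranslated exon of a protein-coding gene. Midpoints from 500 bp upstream to 200 bp downstream of any protein-coding 5′ end were set apart as promoter regions, and 25 exonic regions in 2 stretches of chromosome IV, from 4.5 to 7.0 Mb and from 13.5 to 17.2 Mb, were left out. The 389 members were 13.9% of the 2796 regions on the 5 autosomes outside those stretches (exact 95% interval 12.7 to 15.3%). All intervals on shares cover counting error only, since regions of 1 list are not replicates.

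Both samples, labelled as biological replicates 1 and 2, were whole L1 larvae, males and females pooled, of strain OP318, genotype unc-119(ed3) III; wgIs318. The line stably expresses NHR-12 with GFP-FLAG fused to its C-terminus, the antibody is labelled nhr-12, and chromatin was sheared by sonication. There was 1 group and no second condition, so no comparison between conditions was possible. As a model the data come from 1 transgenic line and from whole animals, in which a site used in few cells cannot be told apart from a weak site in many.

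NHR-12 belongs to the nuclear hormone receptors, zinc-finger transcription factors whose family is greatly expanded in this nematode. Such factors recruit coactivators or corepressors at the sites they bind. An exon is transcribed and, in its coding part, constrained by the protein code, while a 3′ UTR holds signals for the stability and translation of the mRNA.

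The sequence under the midpoint is shown for the 8 members of highest signal on 4 of the autosomes (II to V), so that the bases on which the authors' caller centred these regions can be read. Each is 30 bases of the WBcel235 reference, on the strand of the gene, with the base at the midpoint in capitals.
agt-2: gagatatacaactgCtgacgtcttttcggc
F58G1.7: cgatttgtggctacTatctaccattttgtt
dos-3: ttatggtgcacattGggccgtgccagctgc
nas-8: tgcccccatccacttCaagtgagacattcc
bcc-1: ttcaactaattcttAaacaataatgaactt
C34C12.2: gaattaccgtcacggTgtctgcagactttt
crt-1: cacagcttttcaacTcgcttcatacaatcg
Y71H2AM.3: ttcgcctaatttttaTaaaattaaaataat
The stretch in agt-2 runs over II:5373426-5373455, that in F58G1.7 over II:12944697-12944726 and that in dos-3 over III:835900-835929. The stretch in nas-8 covers IV:7116065-7116094, that in bcc-1 IV:11086083-11086112 and that in C34C12.2 III:3456389-3456418. The last pair lie at V:6099132-6099161 in crt-1 and at III:2811234-2811263 in Y71H2AM.3. Those in nas-8, C34C12.2 and Y71H2AM.3 are on the plus strand and the others on the minus strand. Their GC content ran from 13.3% in the 3′ UTR of Y71H2AM.3 to 60% in the last coding exon of dos-3. These 8 stretches thus shared no single base composition.

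None of the 389 exonic regions was in the set that passed the authors' reproducibility threshold (IDR, irreproducible discovery rate, a measure of how well ranks repeat from one replicate to the other). A count of 0 of 389 allows a share of up to 0.771%. The rule bears on this: of 522 autosomal midpoints in an exon, 133 lay in promoter windows and so were not members. Their median signal was 19.8, and 3 of them were above the strongest member. Of all 2796 autosomal regions 113 were in that set, 4.04%, made up of 69 promoter, 23 intergenic and 21 intronic regions. On the signal value, a score of the authors' caller with no stated scale, the lowest in the IDR set was 37.1 and the highest of any member was 34.9. The top member stood at rank 190 of the joint list, with 25 regions between it and the IDR set. Only 2 members reached the highest −log10 q-value in the list, 1.08, which 140 of the autosomal regions shared. The median −log10 q-value was far lower, at 0.061 for the members and 0.087 for all autosomal regions. By this measure the typical member was not set apart from background.

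Typical signal was low in the exonic regions, as it was in intronic and intergenic regions. Their median signal was 19.2 (95% interval 18.99 to 19.45 from order statistics; interquartile range 17.98 to 20.94), close to the list's lowest value of 17.2. The medians were 19.4 for 929 intronic, 19.7 for 768 intergenic and 20.99 for 710 promoter regions, and 19.7 for all autosomal regions. The intronic median lay inside the interval of the members. The classes differed far more at the top, where the highest signals were 130 for promoter, 111 for intronic and 88.5 for intergenic regions. In all 131 autosomal regions exceeded the strongest member, 77 of them promoter, 28 intronic and 26 intergenic.

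**Figure D1:**
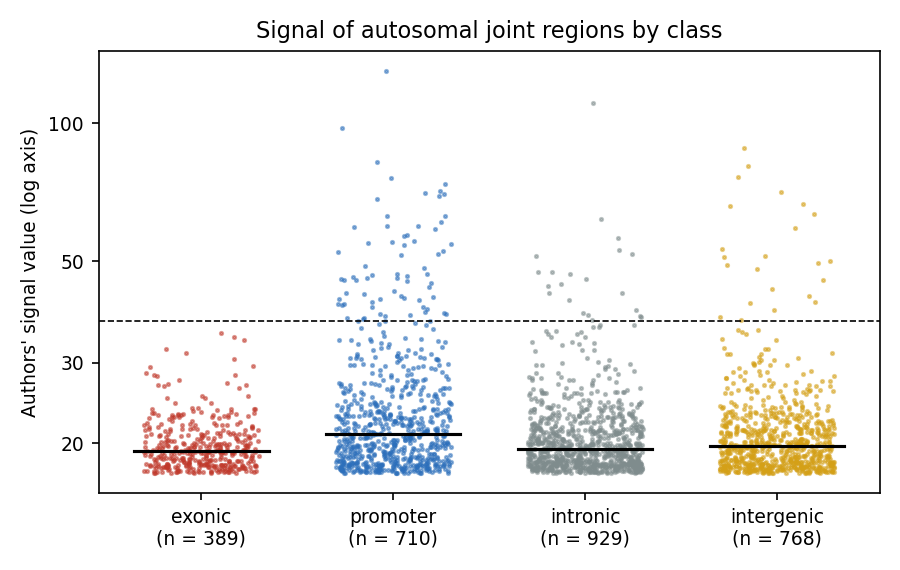
Signal value set by the authors' caller (log axis, no stated scale) for each autosomal region of the joint list by class. Points are regions, solid bars are medians and the dashed line is the lowest signal in the IDR set, 37.1; no exonic region reaches that line.

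Exon sequence held fewer regions than its length. Eligible exon bases were 20321289 of 76353663 autosomal bases, or 26.6%, against the 13.9% of regions. This came to 19.1 exonic regions per Mb, compared with 37.4 per Mb in introns, 37.4 in intergenic sequence and 66.8 in promoter windows. By chromosome the exonic share of the autosomal regions lay between 12.9% on V (82 members) and 15.8% on III (92 members), with 89 members on I, 68 on II and 58 on IV.

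The exonic share was lowest among the strongest regions of the joint list. When the list was cut by rank into 4 equal parts, it was 8.15% in the part of highest signal (57 of 699 regions) and 13.6%, 17.9% and 16.0% in those that followed. The replicate lists, which hold peaks and background together, also had their lowest exonic share at the top. The exonic share in replicate 1 was 15.5% in the strongest part and 20.2% in the weakest, and in replicate 2 it was 20.6% and 23.7%. Exonic regions took more of each replicate list than of the joint list in each of the 4 parts.

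**Figure D2:**
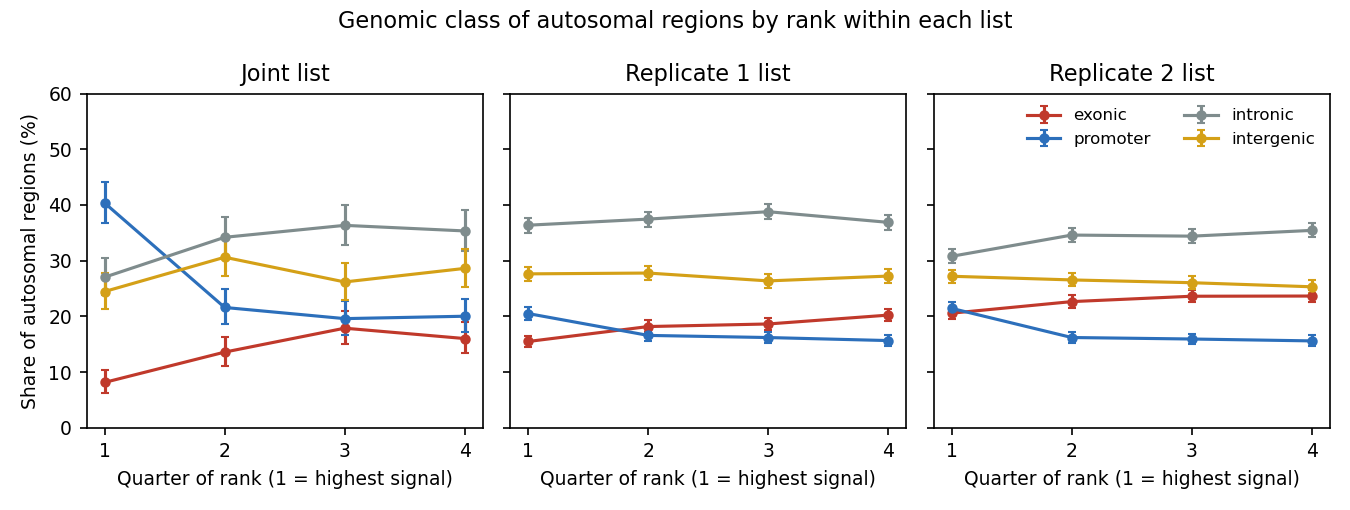
Share of autosomal regions (%) in each genomic class, in 4 equal parts by rank within the joint list and the 2 replicate lists; bars are exact 95% intervals for counting error. The exonic share is lowest in the first part of each list, at 8.15%, 15.5% and 20.6%.

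The strongest members, chosen as the 20 of highest signal, ranged from 34.9 down to 25.4. Of these, 10 had their midpoint in a 3′ UTR, 7 in coding sequence and 3 in a 5′ UTR, and 11 were in the last exon of the transcript. All 20 had a midpoint of the replicate 1 list within 100 bp, the distance used for a match, and 16 had one in replicate 2. They were spread over unrelated genes.

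The region of highest signal, 34.9, lay at II:5373253-5373628 in the 5′ UTR in exon 1 of agt-2 (WBGene00000094), which encodes an alkylguanine DNA alkyltransferase that repairs alkylated bases. Its midpoint was 386 bp downstream of the gene's 5′ end and from 500 to 1000 bp upstream of that of another gene. The region reached into a promoter window. It matched rank 1981 of the 26878 regions of replicate 1. The nearest region of replicate 2, which has 30000, was strong at rank 217 but its midpoint lay 115 bp away, just past the limit for a match. In vps-25, a subunit of the ESCRT-II complex that sorts membrane proteins, the region at I:12736541-12736916 had a signal of 33.6, with ranks of 2407 and 192 in replicates 1 and 2. Its midpoint was in a 5′ UTR exon far inside the gene, and within the promoter window of a shorter annotated transcript. In all 23 of the 389 members, whatever the part of the exon, lay in the promoter window of some transcript, 9 of them in first exons and 3 among the strongest 20 (vps-25, trm-2A and Y32G9B.1), with a median signal of 20.9.

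Coding exons carried several of the regions that both replicates ranked high. F58G1.7, a gene of no named function, had a signal of 34.1 at II:12944524-12944899 over its exon 6 and stood at rank 536 in replicate 1 and 261 in replicate 2. The midpoint was within 200 bp of sup-6, a small nuclear RNA gene. In nas-8, which encodes an astacin-type zinc metalloprotease, the region at IV:7115892-7116267 had a signal of 29.4 and ranks of 1198 and 333. Its exon 2 is 72 bp long and only 19.1% of the region was exonic, so most of the region lay over introns.

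In cye-1, encoding the cyclin E that drives entry into S phase, exon 3 held a region of signal 29.5 at I:6781844-6782219, with ranks of 1056 and 960. A tRNA gene was within 200 bp of the midpoint. A second, overlapping region over exon 4 had a signal of 18.8. In dos-3, whose product resembles the Notch co-ligand OSM-11, 2 overlapping regions in the last coding exon had signals of 32.2 and 20.96. The stronger, at III:835727-836102, matched rank 376 of replicate 1, while the nearest replicate 2 region, at rank 628, was 209 bp away and matched the weaker one.

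Among strong regions over 3′ UTRs, that of unc-87, a calponin-like protein that binds actin in body wall muscle, had a signal of 31.5 at I:6761493-6761868 and ranks of 797 and 2186. The region over the 3′ UTR of crt-1, the calcium-binding chaperone calreticulin of the endoplasmic reticulum, had a signal of 28.2 at V:6098959-6099334 and ranks of 3184 and 713. For trm-2A, a tRNA uracil methyltransferase, the signal was 27.1 at V:910891-911266 and the ranks were 3231 and 688. Both replicates placed these regions in the upper part of their lists.

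Other 3′ UTR regions were strong in 1 replicate only. The region of tns-1, tensin, a focal adhesion protein, had a signal of 30.6 at I:5583502-5583877 and ranked 315 in replicate 1 but 22003 in replicate 2. That of bcc-1, the homologue of the RNA-binding protein Bicaudal-C, had a signal of 28.5 at IV:11085910-11086285 and ranks of 179 and 9843. That of Y71H2AM.3, annotated as an E3 ubiquitin ligase, had a signal of 28.0 at III:2811061-2811436 and ranks of 178 and 13032. In the reference 96.5% of the 201-bp window about its midpoint is masked as repeat sequence. The median masked share was 25.9% for the members and 38.8% for all autosomal regions. The opposite case was nuo-2, a subunit of mitochondrial complex I, whose coding exon 3 held a region of signal 26.8 at I:6531186-6531561 that ranked 12551 in replicate 1 and 747 in replicate 2. A high joint signal thus did not require a high rank in both replicates.

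Of the 389 exonic regions 303, or 77.9% (73.4 to 81.9%), matched replicate 1 and 268, or 68.9% (64.0 to 73.5%), matched replicate 2. The shares over all 2796 autosomal regions were 75.1% and 73.6%. Both replicates were matched by 195 members, 50.1% (45.0 to 55.2%), beside 51.8% of all autosomal regions. Intronic regions had the same order of the replicates as the members, at 74.9% in replicate 1 and 70.5% in replicate 2, and 49.3% matched both. So had intergenic regions, at 75.1% and 73.0%, with 51.2% matching both. Only promoter regions had the opposite order, at 73.8% in replicate 1 and 80.7% in replicate 2, and 56.5% matched both. A further 108 members matched replicate 1 alone, 73 matched replicate 2 alone and 13 matched neither. At points 1000 bp to either side of the members (778 points), 5.27% had a midpoint of replicate 1 within the same distance, 6.81% one of replicate 2, and 0.643% both. The joint call used the same reads as both replicate lists, so these shares are not independent of it.

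Matching fell with signal. Among members in the strongest of those 4 parts of the joint list 85.96% matched replicate 1 and 77.2% matched replicate 2, and in the weakest part the shares were 70.5% and 64.3%. The order of the replicates was the same in each part. By chromosome it was not: on II 72.1% of the members matched replicate 1 and 79.4% matched replicate 2, whereas on I, III, IV and V replicate 1 had the higher share.

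Ranks in the replicates did not rise together among the 195 members matched in both. Spearman's rho between the ranks was −0.26, given as a description, since the points share the joint call, which admits a region that is low in 1 list when it is high in the other. Over the members matched in each replicate, the joint signal had a rho of 0.20 with the signal of replicate 1 and of 0.35 with that of replicate 2. Of these 195 members 39 were in the top 10% of the replicate 1 list, 55 in that of replicate 2 and 8, or 4.10%, in both. In 33 cases, 16.9%, a member was in the top 10% of 1 list and in the lower 50% of the other. Over all 1447 autosomal regions matched in both, rho was −0.01, 13.6% were in the top 10% of both lists and 16.9% were split in this way. By class, rho was 0.31 for promoter, −0.20 for intronic and −0.12 for intergenic regions.

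**Figure D3:**
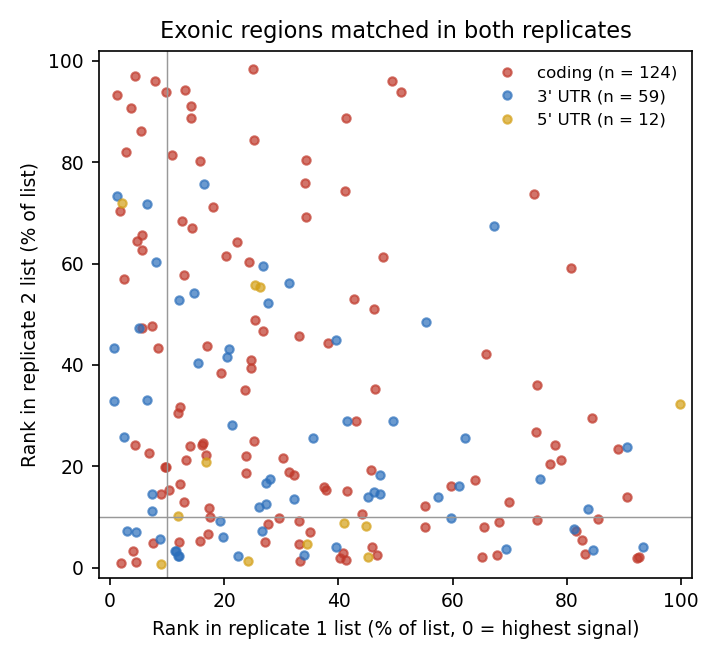
Rank in the replicate 1 and replicate 2 lists, as a percentage of the list (0 is the highest signal), for the 195 exonic regions matched in both; colours give the part of the exon and grey lines mark 10%. The points fill the lower left edges, with 8 members in the corner where both ranks are within the top 10%.

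The members of best combined rank were F58G1.7, nas-8, cye-1, vps-25 and unc-87, all described above, followed by idpc-5, F32H5.4, crt-1, trm-2A and mrpl-46. The region of idpc-5, an intrinsically disordered protein gene, lay over its 3′ UTR at V:9621925-9622300, with ranks of 1221 and 2130 but a joint signal of only 21.95. F32H5.4, a transporter of the major facilitator superfamily, had a coding region of signal 25.1 and ranks of 2006 and 1490. The 3′ UTR of mrpl-46, a protein of the large mitochondrial ribosomal subunit, had a region of signal 23.5 and ranks of 2336 and 1724.

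Within the exons the members lay towards the 3′ ends of genes. Of the 389 midpoints 122, or 31.4% (26.8 to 36.2%), were in a 3′ UTR, against 10.6% of the eligible exon bases. Coding sequence held 248 members, 63.8%, against 87.0% of the bases, and 5′ UTRs held 19, 4.88% against 2.40%. The last exon held 171 members, 44.0% against 23.6% of bases, and internal exons held 194, 49.9% against 70.9%. The share over 3′ UTRs was above that of the bases on each autosome, from 20.7% against 9.29% on V to 39.1% against 11.9% on III.

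The last 20% of gene length held 181 midpoints, 46.5% (41.5 to 51.6%), where 28.4% of eligible exon bases lie. The median distance to the 3′ end of the gene was 724 bp (564 to 886 bp), compared with 1253 bp for the bases. Within 200 bp of a 3′ end there were 89 members, 22.9% against 11.6% of bases. Gene length and exon length differed little from the bases, with medians of 3683 against 3547 bp and 307 against 335 bp.

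**Figure D4:**
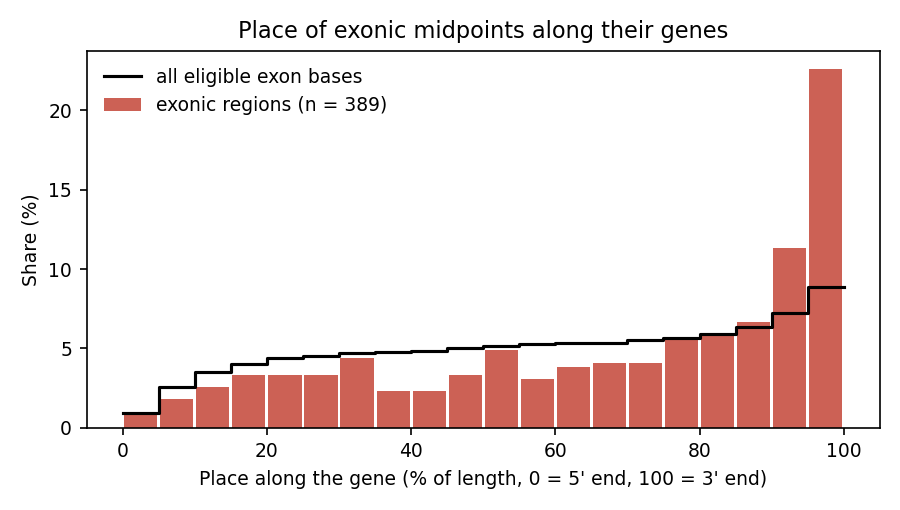
Share (%) of the 389 exonic midpoints (bars) and of all eligible exon bases (line) in 20 equal steps along the gene, from the 5′ end (0) to the 3′ end (100). The bars exceed the line most in the last steps; the last 20% of gene length holds 46.5% of midpoints and 28.4% of bases.

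The lean towards 3′ UTRs was smaller in the replicate lists taken alone. Among the strongest 2796 autosomal regions of replicate 1, 385 were exonic and 25.2% of these were over a 3′ UTR. In replicate 2 the count was 515 and the share 20.97%. Exonic regions of these sets more than 500 bp from any joint midpoint gave 20.5% and 16.9%, and the remainder of each list gave 20.5% and 15.5%. All of these exceeded the 10.6% of bases, so the lean was present in each replicate and also in regions that the joint list does not contain.

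In a compact genome the 3′ end of a gene can lie near the start of the next. From 500 to 1000 bp upstream of another 5′ end there were 52 members, 13.4% against 9.72% of exon bases. Without that zone 98 of 337 members, 29.1%, were over 3′ UTRs, against 9.89% of bases. These counts leave in members farther from another 5′ end and those near other transcript starts. Whether nearness to another gene's start plays a part in the lean was not tested. At the edge of the promoter window the members nearest to it were 204 bp downstream of the 5′ end of Y53C10A.15, with a signal of 22.8, and at position −504 relative to that of Y47D3A.32, with a signal of 17.8. The region of ttc-39B, with a signal of 26.8, lay at position −505 relative to the 5′ end of set-4. Just outside the rule, the regions 199 bp downstream of Y19D2B.2 and M04D8.8 had signals of 18.4 and 19.6.

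Coding and 3′ UTR members had close signals, and 5′ UTR members were somewhat stronger. The median signal was 19.1 in coding exons, 19.2 in 3′ UTRs and 21.5 in 5′ UTRs, the last from 19 members. Of the 24 members in first exons 9 lay in the promoter window of some transcript, and promoter regions had a median of 20.99. Whether this plays a part in the 5′ UTR value was not tested. Both replicates were matched by 124 of 248 coding members, 59 of 122 over 3′ UTRs (48.4%) and 12 of 19 over 5′ UTRs (63.2%). Of the 98 members of highest signal 38 were over a 3′ UTR and 13 over a 5′ UTR, and of the 97 of lowest signal 24 and 4 were. Between them in signal, the next 97 members had 26 and 2, and the 97 after those had 34 and 0. The count over 3′ UTRs thus did not fall steadily with signal.

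Windows about the members had fewer G and C bases than windows about exon bases at large. The mean GC content of the 201-bp windows about the midpoints was 35.9% ± 6.43 (SD over 389 regions), against 39.3% over all eligible exon bases. Many windows run past the exon: the median distance to the exon edge was 66 bp for the members and 72 bp for the bases. The part of sequence outside exons in the gap was not tested. Part of this gap is the larger share of members over 3′ UTRs, which have less GC than coding sequence. Within coding sequence the mean was still lower, at 37.5% ± 6.02 against 40.1%. In 3′ UTRs the members had 32.3% ± 5.45 against 32.7%, and in 5′ UTRs 36.6% ± 8.25 against 36.4%. On each autosome the mean of the members was below that of its exon bases, by the least on V with 37.0% against 38.4%. The median for the members, 35.3%, was above those of intronic (31.8%) and intergenic (32.3%) regions and just under that of promoter regions (36.3%). Base composition also affects amplification and mapping of reads, and its part in these results was not tested.

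**Figure D5:**
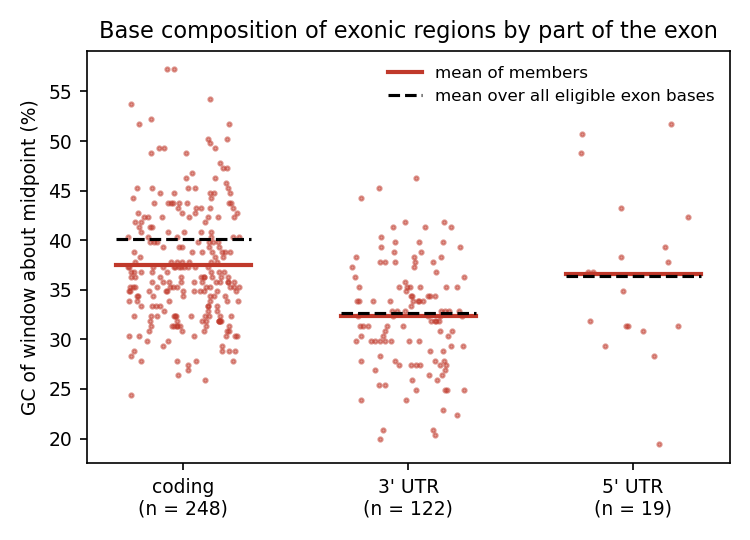
GC content (%) of the window about the midpoint of each exonic region, by part of the exon; points are regions, solid bars their means and dashed bars the means over all eligible exon bases of that part. Coding members average 37.5% against 40.1% for the bases, while both UTR groups lie at their bases' means.

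Short sequence patterns were counted in the same windows on both strands. AGGTCA, the half-site that many nuclear receptors recognise, was in 16 members, 4.11% (2.37 to 6.59%), beside 4.51% of all autosomal regions and 3.17% of 284 exonic points 1000 bp from members. TTTTTT was in 55.3% of members, 69.4% of all autosomal regions and 37.7% of those exonic points. GAAGAA was in 31.6% of members, 22.9% of all autosomal regions and 32.0% of the exonic points. GAGAGA was in 12.9% of members, 16.0% of all autosomal regions, 20.4% of promoter regions, 12.9% of intronic regions and 10.6% of the exonic points. TTCGCG was in 3.599% of members, 5.94% of all autosomal regions, 10.6% of promoter regions, 3.65% of intergenic regions and 3.17% of the exonic points. TATAAA was in 21.3% of members and CAACAA in 17.5%, beside 23.3% and 17.5% of all autosomal regions and 19.4% and 17.6% of the exonic points. AGATAA was in 10.5% of members, 10.5% of all autosomal regions and 11.97% of the exonic points. GGAGGA was in 7.198% of members (4.84 to 10.2%) and 7.05% of all autosomal regions, and in 12.7% of the exonic points. CACGTG was in 3.08% and TGACTCA in 1.03%, beside 3.79% and 1.90% of all autosomal regions and 5.28% and 1.06% of the exonic points. A match is a count of letters and says nothing on binding.

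The 389 midpoints fell in 380 genes when each was given 1 gene, and in 384 when the 4 midpoints in exons of more than 1 gene were counted for each. Of 15967 protein-coding genes with eligible exon sequence this was 2.4%. No gene had more than 2 members, and 9 had 2: C05D11.8, C07A9.9, W09D10.4, cye-1, dos-3, met-1, mnk-1, rsp-3 and tent-5. In met-1, a histone methyltransferase, a 5′ UTR region had a signal of 21.98 and a region in coding exon 11 one of 23.8. In mnk-1, a kinase of translation initiation factors, regions in the 5′ and 3′ UTR had signals of 23.8 and 21.9.

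Across 24 gene lists, chosen by name pattern, few members fell in any list. The chemoreceptors, receptors of sensory neurons and the largest list, had a region in 18 of 1168 genes (1.54%), with srw-44 the strongest at 23.3. The nuclear hormone receptors, the family of NHR-12 itself, had 3 of 242 (1.24%), namely nhr-274, nhr-241 and nhr-212, all at 18.3 or less. The F-box and MATH-BATH genes had 1 of 371, collagens and cuticle genes 1 of 137, C-type lectins 2 of 228, and neuropeptides and insulins 1 of 98.

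Apart from the proteasome, with 3 of 32 genes (9.4%), lists of genes with housekeeping roles held 0 to 2 members each. Their shares lay on either side of the 2.4% of all genes. Cytosolic ribosomal proteins had 2 of 69 (2.90%), rps-0 at 21.5 and rps-13 at 18.3, and translation factors had 1 of 31 (3.23%). Histones had 1 of 63 (1.59%), his-37, aminoacyl tRNA synthetases had 0 of 30, and the respiratory chain had 1 of 29 (3.45%), nuo-2. Chaperones had 2 of 53 (3.77%), hsp-1, the constitutive Hsp70, at 23.0 and dnj-29 at 22.1.

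The highest shares came from small lists. Muscle and sarcomere genes had 2 of 17, unc-89, a giant protein of the M-line, at 25.1 and unc-22, twitchin, at 19.1. The proteasome had 3 of 32, rpt-2, pas-5 and rpn-12, at 19.2, 17.8 and 17.4. Tubulins had 1 of 10 (tbg-1), kin and pkc protein kinases 2 of 20 (kin-14 and kin-18), and the kinesins, dyneins and myosins matched by name 1 of 20 (hum-1). Outside the name patterns of that list, the kinesin-like bmk-1 at 18.7 and the dynein light intermediate chain dli-1 at 19.2 also had a region. The homeobox name pattern had 2 of 58, ceh-6, a POU-class factor, at 23.7 and lim-9, annotated as a LIM zinc-binding protein, at 20.98. The homeobox gene unc-62, at 23.2, was not matched by the pattern. The other lists, which were UDP glucuronosyltransferases (2 of 59), cytochrome P450 (1 of 66), chromatin (1 of 44), spliceosome (1 of 28), cadherins and basement membrane (0 of 15) and vitellogenins (0 of 1), added 5 genes. The exact 95% interval of the share held the 2.4% of all genes for each list but 1. The exception was the F-box and MATH-BATH list, with an upper limit of 1.49%. That list rests on symbols and did not match Y82E9BR.19 and ZK250.13, members annotated as F-box domain proteins. Likewise F38E11.9, annotated with a nuclear receptor ligand-binding domain, was outside the receptor list. The shares are thus not those of whole families, and no allowance was made for the 24 lists or for exon length.

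An exonic midpoint did not mean an exonic region. All 389 regions were 376 bp wide, and in 237 of them, 60.9%, the exon was shorter than that. The median member was 75.5% exonic, 86 were wholly so, and 47 reached into a promoter window. Within 1000 bp of an IDR peak there were 5 members, in gei-13, xbx-5, syx-5, rcor-1 and his-37, and 31 had another region of the joint list within that distance. A noncoding RNA gene lay within 200 bp of 16 midpoints, among them snoRNA genes beside cdc-48.1, mdt-4 and rps-13. These counts of neighbours were not set beside those of other regions or of exon bases, so no association can be read from them.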

How the data were processed

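The 2 biological replicates in 1 group and 1 control file entered the authors' calling, per the labels and the deposited description of file derivations. The authors deposited lists of regions in ce11 (WBcel235) with a signal value, a score of no stated scale, and a −log10 q-value per region; the p-value column holds a placeholder. Lists of each replicate and the joint list hold peaks and background, per the deposited description of file types. The aligner, the caller, their versions and the IDR threshold are not given in the sources used here. The lists hold no read counts, so sequencing depth is unknown. Lists in ce10 were not used.

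Midpoints were classified against Ensembl release 115 gene models (promoter, then exon, intron and intergenic), and each exonic midpoint was placed in the transcript with the longest coding sequence. Eligible exon bases were those meeting the same rule. A match was a replicate midpoint within 100 bp. GC content and patterns were read in 201-bp windows of the RefSeq genome. Intervals are exact binomial at 95% confidence. No test was run across regions, which are not replicates. Named regions were the 20 of highest signal, the 10 of best summed rank in both replicates, genes with 3 or more members (there were none) and the up to 4 strongest genes of each gene list; other named genes were picked after their values were seen. The members and gene lists were chosen with earlier results of these data known. Classification and matching were tested on made-up points. Python 3.11.15, numpy 2.4.6, pandas 2.3.3, scipy 1.17.1 and matplotlib 3.10.9 were used.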

Additional observations from a re-analysis of the deposited data

How the results depend on the processing

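Of 39 alternative values 18 stayed within the counting interval and 21 moved. The exonic share, 13.9%, was 18.4% without replicate 1 and 13.8% without replicate 2 (the strongest 2796 regions of the other replicate), and 10.9% among the stronger joint regions, those above the median signal. The share over 3′ UTRs, 31.4%, was 20.97% without replicate 1 and 25.2% without replicate 2, an alternative added after seeing the data. Matching depended on its definition. Within 50 bp the shares of members matched in replicate 1, replicate 2 and both were 63.5%, 56.6% and 31.1%; within 200 bp they were 84.6%, 80.5% and 65.3%; with an overlap of 1 bp they were 87.9%, 84.6% and 72.8%. Against the strongest part of each replicate list (1 region in 3) they were 53.2%, 48.1% and 15.9%, and for members among those stronger joint regions 84.2%, 75% and 61.2%. The median signal was 19.6 for members matched in both replicates, and the median GC content was 36.6% in coding exons. The share in the IDR set was 0 also with the 5′ ends of every transcript and with a promoter limit of 250 bp upstream. The limit of 200 bp downstream was not varied. No paired analysis was possible because there was 1 group. The unknown depth, the 2 replicates and the missing control reads limit these values: a weak region cannot be told apart from background, and no error between replicates can be given for a share.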
